A study of Mus musculus with 15 samples.

Results

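The fatty acid desaturases and elongases described here were 9 genes of fatty acid metabolism, namely the stearoyl-CoA desaturases Scd1 and Scd2, the front-end desaturases Fads1 and Fads2, and the elongases Elovl1, Elovl2, Elovl3, Elovl5 and Elovl6. They were listed by name, with earlier results of these data known. Every one of them was the only gene symbol of exactly 1 probe set, the group of short DNA probes that reads a transcript on the array, so that 9 of the 19938 genes with a readable probe set were members and none was lost.

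Liver RNA was measured on 15 expression arrays, 1 per mouse. All mice were males of 7.5 months (within 2.5 weeks), kept on a 129/Sv background, fed the same chow and dosed by gavage on 4 consecutive days. Of these, 3 PPARα-null mice received di(2-ethylhexyl) phthalate (DEHP, a plasticizer) at 1150 mg/kg/day in corn oil, 4 PPARα-null mice received corn oil alone, 4 wild-type mice received the same DEHP dose, and 4 wild-type mice received corn oil alone. The null mice were 129S4/SvJae-Pparatm1Gonz/J and the wild-type mice 129S1/SvlmJ, so any contrast of genotypes was also a contrast of these strains, and the effects of strain and null allele cannot be told apart. The null allele is a germline mutation, present in all tissues and not in hepatocytes alone.

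The deposited values were linear intensities already on a common scale, with array medians from 44.4 to 47.5 and correlations within groups from 0.988 to 0.992 across probe sets. A mouse is named here by its genotype letters and animal number. Intensities of different probe sets are not comparable with each other, since every probe set binds with its own strength. Differences are log2 differences ± standard errors from a limma fit of 1 mean per group to all 15 arrays, with p after Benjamini-Hochberg adjustment across the 19938 genes. A gene is said to have risen or fallen only where the adjusted p was below 0.05. Counts at an unadjusted p below 0.05 are given without the share of all genes, so no excess can be read from them. Ppara itself had intensities of 554 to 617 in null mice on DEHP and 508 to 606 in null mice on corn oil, against 751 to 1197 in wild-type mice on DEHP and 798 to 943 in wild-type mice on corn oil. It was lower in nulls, with null minus wild type at -0.64 ± 0.13 under DEHP (adjusted p = 0.00422) and -0.69 ± 0.12 under corn oil (adjusted p = 0.00645), and the part of the gene that the probe set reads was not known here.

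Stearoyl-CoA desaturases put the first double bond into saturated fatty acids and so make oleate and palmitoleate, the main fatty acids of stored triglyceride. Fads2 and Fads1 add further double bonds to the dietary polyunsaturated fatty acids linoleate and α-linolenate, and Elovl5 and Elovl2 lengthen the products on the way to arachidonate and docosahexaenoate. Elovl6 lengthens palmitate to stearate, whereas Elovl1 and Elovl3 make saturated and monounsaturated chains of greater length. In liver these genes are known to answer to the sterol-regulated factor SREBP-1c, to the liver X receptors and to PPARα, the nuclear receptor that binds fatty acids and the metabolites of peroxisome proliferators such as DEHP. They are also expressed in adipose, sebaceous and myelin-forming tissue.

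The promoters of Fads2 and Elovl5 are shown because these were the members that rose with DEHP. Both are the 250 bases before the RefSeq transcription start in the GRCm38 mouse assembly, written 5′ to 3′ on the strand of the gene. The Fads2 window lies at chr19:10101504-10101753 on the minus strand and the Elovl5 window at chr9:77917115-77917364 on the plus strand. Capitals mark the NF-Y box CCAAT, read here as ATTGG because it lies on the opposite strand.
Fads2: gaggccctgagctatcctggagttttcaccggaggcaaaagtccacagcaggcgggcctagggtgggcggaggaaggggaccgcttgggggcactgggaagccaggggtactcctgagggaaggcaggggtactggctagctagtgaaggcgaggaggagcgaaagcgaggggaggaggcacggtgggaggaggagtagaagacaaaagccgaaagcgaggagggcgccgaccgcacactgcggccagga
Elovl5: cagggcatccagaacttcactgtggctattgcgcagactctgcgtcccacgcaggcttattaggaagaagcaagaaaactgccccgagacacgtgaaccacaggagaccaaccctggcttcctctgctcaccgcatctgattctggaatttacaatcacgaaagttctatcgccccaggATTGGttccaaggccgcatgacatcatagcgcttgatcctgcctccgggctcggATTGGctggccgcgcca

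The Elovl5 window held the NF-Y box at -71 to -67 and at -17 to -13, counted in bases from the start, and 33.8% of the 32851 mouse promoters searched held at least 1 such box. The Fads2 window held none. Neither window held the sterol regulatory element TCACNCCAC, which occurred in 1.05% of promoters, on either strand. Neither held a direct repeat of the nuclear receptor half-site AGGTCA with a gap of 1 base (DR1, the arrangement PPARα binds) or of 4 bases (DR4, the arrangement the liver X receptors bind), which occurred in 0.0335% and 0.0152% of promoters. With the half-site relaxed to AGGNCA the shares were 0.338% for DR1 and 0.213% for DR4, and again there was no match in either window. Fads2 had 64.8% G and C in its window and Elovl5 55.6%. Promoter windows were matched for 5 of the 9 members (Fads2, Elovl1, Elovl2, Elovl5 and Elovl6), 7 windows in all. Among the other windows 1 of Elovl1 held an NF-Y box at -35 to -31, the other window of Elovl1 held a relaxed DR1 at -95 to -83, and those of Elovl2 and Elovl6 held none of the motifs. These matches describe letters only and say nothing about binding in these livers.

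With DEHP, Fads2 and Elovl5 rose in wild-type livers, by 1.46-fold and 1.59-fold, and no member fell. Both act in the same pathway, since Fads2 takes the first desaturation step of polyunsaturated fatty acid synthesis and Elovl5 the elongation that follows it. The other 7 members did not pass the test, although all 9 had a positive difference in wild-type mice. The median difference of the 9 was 0.29 on the log2 scale, beside -0.015 for all genes tested. Single mice moved this median, to 0.16 without WT-55 and 0.44 without WT-58. Over the omissions of single mice the Elovl6 difference ran from -0.06 to 0.17, so its positive sign was not stable. Of all genes, 2.29% rose and 1.57% fell in this comparison, beside 2 and 0 of the 9 members. In whole liver, fewer cells of a type and less RNA per cell cannot be told apart.

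Elovl5 read 3812, 3774, 4739 and 4091 in wild-type mice on DEHP (WT-56 to WT-59), against 2509, 2866, 2528 and 2392 in wild-type mice on corn oil (WT-52 to WT-55). Every DEHP-treated wild-type mouse lay above every corn oil mouse. The difference was 0.67 ± 0.08 (adjusted p = 0.000161, 4 of 4 mice higher than all controls). Fads2 read 4406, 4362, 5929 and 4271 in wild-type mice on DEHP, against 3189, 3179, 3218 and 3259 in wild-type mice on corn oil. The highest corn oil mouse read 1.025 times the lowest, and WT-58 stood above the other treated mice. The difference was 0.55 ± 0.12 (adjusted p = 0.0146), and without WT-58 it was 0.44 (adjusted p = 0.04). Leaving out each of the 8 mice in turn kept both genes past the threshold, with adjusted p up to 0.0446 for Fads2 and up to 0.000914 for Elovl5.

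Scd1, the main stearoyl-CoA desaturase of liver, read 7975, 7704, 7851 and 6220 in wild-type mice on DEHP, against 5381, 3814, 4099 and 3732 in wild-type mice on corn oil. These groups did not overlap either, which held for 3 of the 9 members in the upward direction and for 6.1% of all genes. The difference was 0.81 ± 0.58, with a 95% interval from -0.42 to 2.05, and did not pass the test (adjusted p = 0.543). The standard error came from all 4 groups, and the null mice varied far more in Scd1 than the wild-type mice did. With only the wild-type arrays in the fit the adjusted p of this difference was 0.00717.

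**Figure D1:**
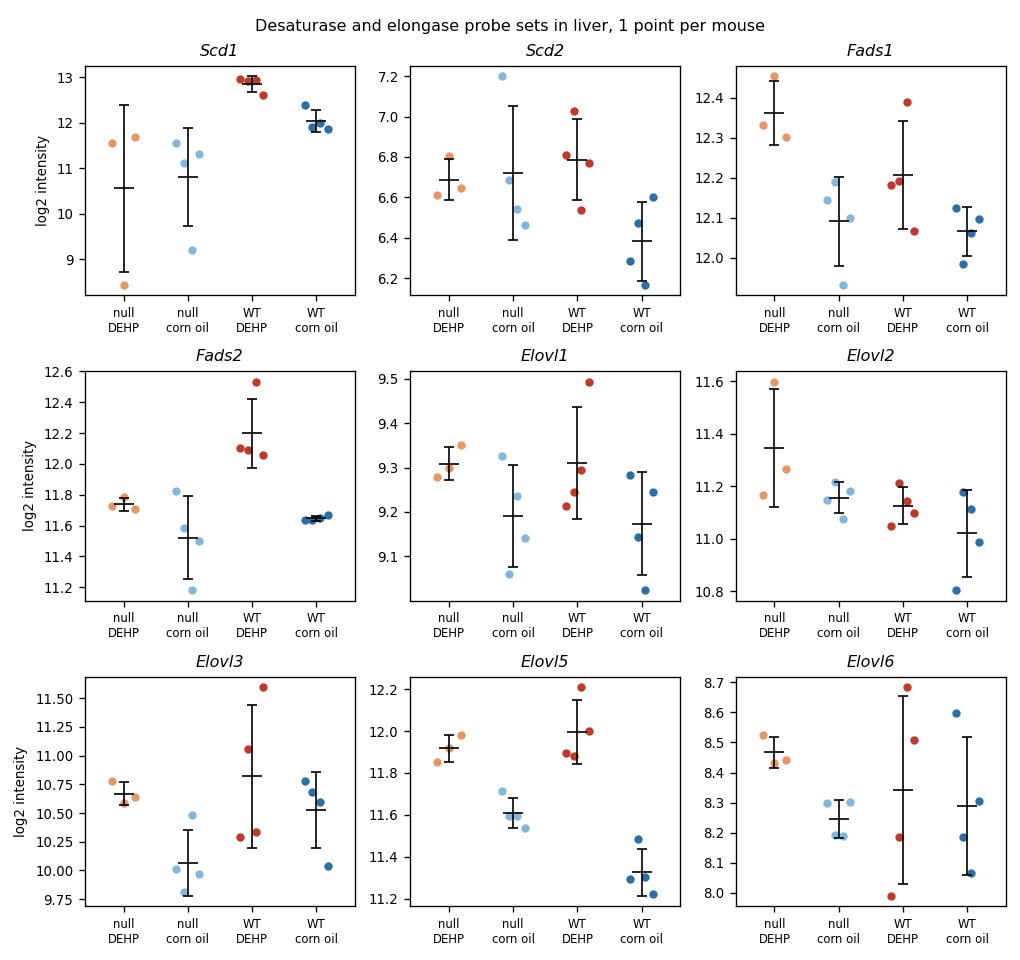
Log2 intensity of each member in every mouse (1 point each), by group, with the group mean and SD as bars; every panel has its own vertical scale. In wild-type mice the DEHP points of Fads2, Elovl5 and Scd1 lie above all corn oil points, and the null groups of Scd1 are widely spread.

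The remaining members differed less between the wild-type groups. Scd2, the stearoyl-CoA desaturase best known from brain, had 112, 130, 93.0 and 109 in wild-type mice on DEHP, against 78.0, 88.9, 71.95 and 97.2 in wild-type mice on corn oil, with overlap (0.40 ± 0.14, adjusted p = 0.148). Elovl3, which is known for a daily rhythm and a male bias in liver, ran from 1254 to 3096 in wild-type mice on DEHP, against 1052 to 1760 in wild-type mice on corn oil. Its treated mice were 2.47-fold apart, and the difference of 0.29 ± 0.24 was no larger than that spread (adjusted p = 0.619). Fads1, which makes arachidonate from its precursor, read 4643, 4683, 5370 and 4287 in wild-type mice on DEHP, against 4461, 4049, 4274 and 4382 in wild-type mice on corn oil, and WT-59 lay within the corn oil range (0.14 ± 0.08, adjusted p = 0.376). Elovl2 ran from 2116 to 2375 in wild-type mice on DEHP, against 1789 to 2318 in wild-type mice on corn oil. Elovl1 ran from 593 to 721 in wild-type mice on DEHP, against 520.5 to 623 in wild-type mice on corn oil. Elovl6 ran from 254 to 411 in wild-type mice on DEHP, against 268 to 388 in wild-type mice on corn oil. In these 3 elongases the groups overlapped widely. Their differences were 0.14 for Elovl1, 0.10 for Elovl2 and 0.05 for Elovl6 (adjusted p = 0.409, 0.652 and 0.897).

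In PPARα-null livers no member passed the test with DEHP, where 0.471% of all genes were called in either direction. In limma 3 of the 9 had an unadjusted p below 0.05, namely Fads1, Elovl3 and Elovl5. The share of all genes at that level was not counted. The differences were positive for 7 members, with a median of 0.22 beside 0.01 for all genes. Treated and control nulls did not overlap for 4 members, Fads1, Elovl3, Elovl5 and Elovl6, all higher with DEHP, and 5.57% of all genes had that pattern in the upward direction.

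Elovl5 read 3698, 3874 and 4046 in null mice on DEHP (KO-121 to KO-123), against 3354, 3096, 3088 and 2974 in null mice on corn oil (KO-115 to KO-118). All 3 treated nulls lay above all 4 controls, with a difference of 0.31 ± 0.08 (1.24-fold, 95% interval 0.13 to 0.49, adjusted p = 0.109). Fads1 read 5157, 5613 and 5047 in null mice on DEHP, against 4524, 4670, 3909 and 4388 in null mice on corn oil (0.27 ± 0.08, adjusted p = 0.147). Its treated nulls were also all above the null controls, whereas in wild-type mice the ranges overlapped. Elovl3 read 1761, 1537 and 1595 in null mice on DEHP, against 1033, 900, 1428 and 1003 in null mice on corn oil (0.60 ± 0.26, adjusted p = 0.359). Elovl6, the palmitate elongase, read 369, 345 and 348 in null mice on DEHP, against 315, 293, 292 and 316 in null mice on corn oil (0.22 ± 0.14, adjusted p = 0.572). The 2 Elovl6 groups were separated by a narrow margin, and the Elovl6 values of wild-type mice spanned both of them in either treatment.

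Fads2 read 3383, 3532 and 3342 in null mice on DEHP, against 3631, 3067, 2322 and 2894 in null mice on corn oil. KO-115 on corn oil exceeded every treated null, and the difference was 0.22 ± 0.13 (95% interval -0.05 to 0.49, adjusted p = 0.528). Scd2 ran from 97.9 to 112 in null mice on DEHP, against 88.3 to 147 in null mice on corn oil (-0.03 ± 0.15, adjusted p = 0.959). Elovl1 ran from 621 to 653 in null mice on DEHP, against 534 to 642 in null mice on corn oil (0.12 ± 0.08, adjusted p = 0.628). The treated nulls of Scd2 lay inside the range of the null controls, and those of Elovl1 lay near or above its upper end. Elovl2, which acts late in docosahexaenoate synthesis, read 2301, 3100 and 2465 in null mice on DEHP, against 2160 to 2382 in null mice on corn oil (0.19 ± 0.10, adjusted p = 0.477), and KO-122 stood above all other mice.

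The difference between the DEHP effects of the genotypes was tested for each member as the null effect minus the wild-type effect. No member passed, where 0.898% of all genes did. At an unadjusted p below 0.05 in limma, where the share of all genes was not counted, there was 1 of the 9, Elovl5. Its effect in nulls minus that in wild-type mice was -0.36 ± 0.12 (95% interval -0.61 to -0.12, adjusted p = 0.153). The Fads2 effect differed by -0.33 ± 0.17 (interval -0.70 to 0.03, adjusted p = 0.43). Fads2 and Elovl5 were thus called with DEHP in wild-type mice, not in nulls, while the test of the difference between genotypes did not pass for either gene. The Scd2 and Scd1 effects differed by -0.44 ± 0.21 and -1.05 ± 0.85 (adjusted p = 0.383 and 0.655).

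**Figure D2:**
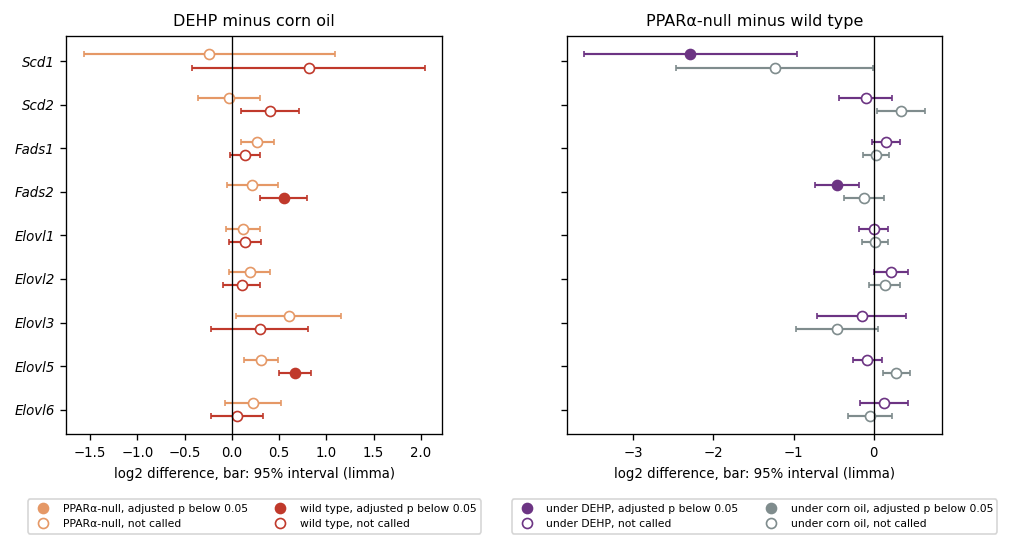
Log2 difference of each member with its 95% interval, for DEHP minus corn oil in null and wild-type mice (left) and for null minus wild type under DEHP and corn oil (right); filled points have adjusted p below 0.05. The filled points are Fads2 and Elovl5 on the left in wild-type mice, and Scd1 and Fads2 on the right under DEHP.

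Between the genotypes under DEHP, Scd1 and Fads2 were lower in null than in wild-type livers, 2 of 9 members beside 5.61% of all genes. No member was higher in nulls, beside 5.09% of all genes. Scd1 reached 0.205 of its wild-type level (-2.29 ± 0.63, adjusted p = 0.0276) and Fads2 0.728 (-0.46 ± 0.13, adjusted p = 0.0288). The groups of both genes did not overlap, a pattern found in the downward direction for 9.51% of all genes. Both calls depended on single mice. Without KO-122 the Scd1 difference was -1.23 (adjusted p = 0.136), and the Scd1 call was also lost without WT-56, WT-57 or WT-58 (adjusted p = 0.0623, 0.054 and 0.053). The Fads2 call was lost without KO-121, KO-122, KO-123 or WT-58 (adjusted p = 0.074, 0.0782, 0.0783 and 0.0674), with differences from -0.50 to -0.35 over the 7 omissions. The Scd1 call was lost as well with a trended robust prior (adjusted p = 0.0693) or with only the DEHP groups in the fit (adjusted p = 0.0767). Elovl5 in treated mice differed between genotypes by -0.08 (interval -0.26 to 0.10, adjusted p = 0.664). Its levels in null mice on DEHP, 3698 to 4046, lay within or just below those of wild-type mice on DEHP, 3774 to 4739. The other 6 members differed between genotypes under DEHP by values from -0.15 (Elovl3) to 0.22 (Elovl2, 95% interval 0.01 to 0.43, adjusted p = 0.201), and all 6 overlapped.

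Under corn oil no member was called between genotypes, where 1.19% of all genes were. In limma 3 of the 9 (Scd1, Scd2 and Elovl5) had an unadjusted p below 0.05, again without a counted share of all genes. Elovl5 was higher in every null control than in every wild-type control, 2974 to 3354 against 2392 to 2866 (0.28 ± 0.08, adjusted p = 0.106). Scd1 had the opposite arrangement, with 593 to 3025 in null controls against 3732 to 5381 in wild-type controls (-1.24 ± 0.58, adjusted p = 0.415). These 2 of 9 members did not overlap between genotypes under corn oil, and 7.72% of all genes had no overlap in one or the other direction. The comparisons share samples: the corn oil wild-type mice with the high Scd1 and low Elovl5 readings are also the controls of the DEHP contrast in wild-type mice.

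The order of the group means of Elovl5 was wild type with DEHP at 4104 ± 446, null with DEHP at 3872 ± 174, null with corn oil at 3128 ± 161 and wild type with corn oil at 2574 ± 204 (SD, n = 4, 3, 4 and 4). The first pair in that order overlapped, and each later step separated all mice of the neighbouring groups. For Fads2 the order was 4742 ± 793 in wild type with DEHP, 3419 ± 100 in null with DEHP, 3211 ± 36.1 in wild type with corn oil and 2979 ± 539 in null with corn oil. The first 3 of these Fads2 groups were separate from each other, and null mice on corn oil spanned the range of wild-type mice on corn oil. For Scd1 the means were 7438 ± 819 in wild type with DEHP, 4256 ± 766 in wild type with corn oil, 2220 ± 1626 in null with DEHP and 2099 ± 1057 in null with corn oil. The null groups of Scd1 overlapped, and every null mouse read below every wild-type mouse.

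Scd1 varied most among the nulls. In null mice on DEHP it read 3021, 349 and 3289, and in null mice on corn oil 3025, 2221, 593 and 2557. KO-122 on DEHP and KO-117 on corn oil were the low mice, and the highest and lowest nulls were 9.43-fold apart with DEHP and 5.11-fold apart with corn oil. The pooled SD within null groups was 1.43 on the log2 scale, the rank of 8 among 19938 genes, against 0.21 and rank 1731 within wild-type groups. The DEHP effect on Scd1 in nulls was -0.24 ± 0.63 (interval -1.57 to 1.09, adjusted p = 0.925), and 0.82 without KO-122 (adjusted p = 0.607), so its sign rested on 1 mouse. The sign also rested on the log scale, since the mean linear intensities, 2220 with DEHP and 2099 with corn oil, ran the other way. The pair did not stand together in Fads1, Fads2, Elovl2 or Elovl3. KO-122 was the highest treated null in Fads1, Fads2 and Elovl2. KO-117 was the lowest null control in Fads1, Fads2 and Elovl2 but the highest in Elovl3. In Elovl6 both were the lowest of their groups by narrow margins. KO-122 read 345 there beside 348 and 369, and KO-117 read 292 beside 293 to 316.

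A few other genes were read in the same mice, chosen after the values were seen. Inmt, which encodes an indole and thioether methyltransferase, had the pattern most like that of Scd1 over the 15 arrays (Pearson r = 0.947, a description). It read 2504, 880 and 3892 in null mice on DEHP and 3109, 2302, 570 and 1897 in null mice on corn oil, against 4857 to 6231 in wild-type mice on DEHP and 3439 to 4371 in wild-type mice on corn oil. KO-122 and KO-117 were thus low in Inmt as in Scd1. Srebf1, the gene of SREBP-1c, was also lowest in these mice, with 542 in KO-122 beside 820 and 863 in the other nulls on DEHP, and 600 in KO-117 beside 638 to 1194 in the other nulls on corn oil. Fasn and Thrsp, genes of fatty acid supply, followed in only 1 mouse of the pair each. Fasn was lowest of its group in KO-122 (994 beside 1357 and 1426), but KO-117 read 1027 and KO-116 read 923. Thrsp was lowest of its group in KO-117 (696 beside 1583 to 1724), but KO-122 read 1017 and KO-123 read 970.

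Saa1, an acute phase protein, read 2135, 3087 and 248 in null mice on DEHP and 301, 246, 729 and 203 in null mice on corn oil, against 2762 to 3520 in wild-type mice on DEHP and 83.5 to 187 in wild-type mice on corn oil. KO-122 and KO-117 had the highest Saa1 of their groups, and KO-121 had a high Saa1 with an Scd1 level close to that of KO-123. The part of any of these genes in the Scd1 levels was not tested.

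**Figure D3:**
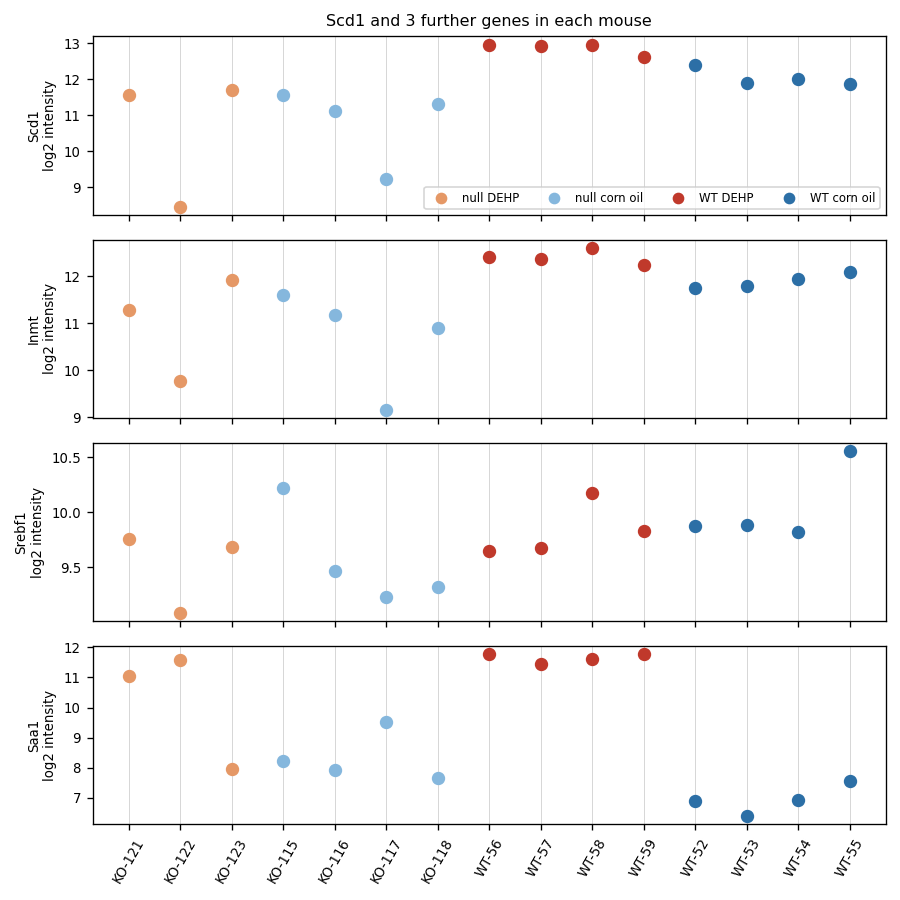
Log2 intensity of Scd1, Inmt, Srebf1 and Saa1 in each mouse, with mice along the horizontal axis and colours for the groups. KO-122 and KO-117 are the lowest mice in Scd1 and Inmt and the highest of their own groups in Saa1.

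For the members that rose with DEHP, the genes outside the family with the most similar pattern over the 15 arrays were Mpp1, a membrane scaffold protein (Pearson r = 0.943), and Zwint, a kinetochore protein (r = 0.939), for Fads2, and Hmgcs1 (r = 0.924), an enzyme of cholesterol synthesis, and Pctp (r = 0.919), a phosphatidylcholine transfer protein, for Elovl5. These r share arrays and groups and are descriptions without a test. Hmgcs1 read 2696, 2660 and 2661 in null mice on DEHP and 1343 to 2161 in null mice on corn oil, against 1983 to 2960 in wild-type mice on DEHP and 845 to 1099 in wild-type mice on corn oil. Like Elovl5, it was higher with DEHP in both genotypes without overlap, and higher in null than in wild-type controls. Among the members themselves the highest r were those of Fads2 with Elovl5 (0.676), Fads1 with Elovl5 (0.633) and Elovl1 with Elovl6 (0.631). Scd1 and Scd2 had r = -0.014.

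In the RefSeq annotation of GRCm38, Fads3, Fads2 and Fads1 are neighbours on chromosome 19 with no other protein-coding gene between them, and so are Scd3, Scd2, Scd4 and Scd1 on the same chromosome. Among these neighbours only Fads2 rose with DEHP in wild-type mice. Fads3 differed by -0.03 (adjusted p = 0.919), Scd3 by 0.19 (adjusted p = 0.406) and Scd4 by 0.17 (adjusted p = 0.485). The other desaturases and elongases on the array, 8 genes (Scd3, Scd4, Fads3, Fads6, Elovl4, Elovl7, Degs1 and Degs2), had no call in limma in either genotype. At an unadjusted p below 0.05, there were 0 of the 8 in nulls and 1 in wild-type mice (Elovl7, 0.28 ± 0.10). Their median difference was -0.02 in nulls and 0.06 in wild-type mice. The Scd genes are close copies of one another, and how far their probes read each other's transcripts was not tested.

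Some genes listed as partners of the elongases and desaturases rose as well. Each elongation cycle needs a ketoacyl reductase, a dehydratase and an enoyl reductase, and the desaturases draw electrons from cytochrome b5 and its reductases. Of 12 such partners 4 rose with DEHP in wild-type mice and 0 fell, with a median of 0.06. They were the dehydratases Hacd1 (0.40 ± 0.06, adjusted p = 0.00163) and Hacd3 (0.40 ± 0.10, adjusted p = 0.0413), the cytochrome b5 of the mitochondrial outer membrane, Cyb5b (0.38 ± 0.07, adjusted p = 0.00585), and the ketoacyl reductase Hsd17b12 (0.30 ± 0.08, adjusted p = 0.0353). The other listed cytochrome b5, Cyb5a, was not called there. The Hacd1 and Cyb5b calls held without each mouse in turn. Hsd17b12 lost its call in 7 of 8 omissions and Hacd3 in 6 of 8, with adjusted p up to 0.108 without WT-55 and 0.103 without WT-52.

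In null mice 0 of these 12 partners were called with DEHP, with a median of 0.18 and 11 of 12 positive, and in limma 6 had an unadjusted p below 0.05. Cyb5b differed there by 0.34 ± 0.08 and the reductase Cyb5r3 by 0.34 ± 0.08 (adjusted p = 0.0645 and 0.0601). Between genotypes under DEHP, Hacd1 (-0.46, adjusted p = 0.000428) and Hacd3 (-0.40, adjusted p = 0.0313) were lower in nulls, and Cyb5r3 (0.30, adjusted p = 0.0178) and Cyb5a (0.23, adjusted p = 0.0353) were higher. The Hacd1 call held in all 7 omissions, while those of Hacd3, Cyb5a and Cyb5r3 were lost in 5, 6 and 3 of them, with adjusted p up to 0.121 without KO-121, 0.198 without KO-122 and 0.0669 without KO-123. Under corn oil Hacd1 alone was called, also lower in nulls (-0.33 ± 0.06, adjusted p = 0.0137), and this call was lost in 3 of 8 omissions, with adjusted p up to 0.0589 without WT-54.

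Of 10 measured genes listed for the supply of acetyl-CoA, malonyl-CoA, NADPH and activated fatty acids, 5 rose with DEHP in wild-type mice. In this list 0 fell and the median was 0.40. Acacb, the acetyl-CoA carboxylase of the mitochondrial surface, rose by 1.35 ± 0.16 (adjusted p = 0.000164) and the malic enzyme Me1 by 0.81 ± 0.14 (adjusted p = 0.00455), both in every omission. The acetyl-CoA synthetase Acss2 rose by 0.79 ± 0.19 (adjusted p = 0.0255), the citrate lyase Acly by 0.64 ± 0.15 (adjusted p = 0.0267), and the acyl-CoA synthetase Acsl4 by 0.41 ± 0.11 (adjusted p = 0.0458). These 3 calls were lost in 5, 5 and 7 of 8 omissions, with adjusted p up to 0.0819 without WT-58 for Acss2, 0.0867 without WT-53 for Acly and 0.129 without WT-58 for Acsl4. Fasn, the fatty acid synthase, differed by 0.30 ± 0.16 (adjusted p = 0.383). The other acetyl-CoA carboxylase, Acaca, was measured and not called, nor was Thrsp. In null mice 0 of the 10 were called and the median was 0.26, with 4 at an unadjusted p below 0.05. Between genotypes, Me1 was lower in nulls under DEHP (-0.97, adjusted p = 0.000963) and Acacb higher in nulls under corn oil (1.23, adjusted p = 0.000513), 1 of 10 each.

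Peroxisomal enzymes shorten a longer precursor to docosahexaenoate at the end of the pathway that Fads2 opens, and several are classical PPARα targets. Of 7 measured, 4 rose with DEHP in wild-type mice: Ehhadh by 2.92 ± 0.15 (adjusted p = 6.54e-08), Acaa1b by 1.46 ± 0.15 (adjusted p = 6.12e-05), Acaa1a by 0.52 ± 0.11 (adjusted p = 0.0121) and Hsd17b4 by 0.36 ± 0.08 (adjusted p = 0.0177). Hsd17b4 lost its call without WT-55 (adjusted p = 0.0623). In null mice 0 of 7 were called, 0 at an unadjusted p below 0.05. For Ehhadh and Acaa1b the genotypes' DEHP effects themselves differed, by -2.60 ± 0.23 (adjusted p = 4.84e-05) and -1.22 ± 0.22 (adjusted p = 0.019). The same test did not pass for any of the 9 members. Under DEHP 6 of the 7 were lower in nulls than in wild-type mice, and 5 of 7 without KO-121 or without KO-122.

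**Figure D4:**
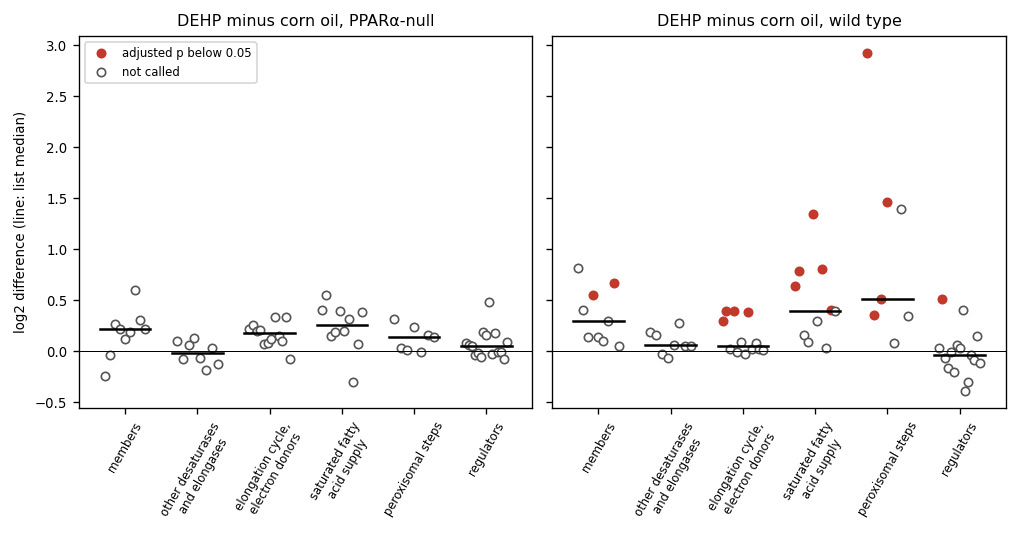
Log2 difference, DEHP minus corn oil, of every gene in 6 groups of related genes, in null mice (left) and wild-type mice (right); lines are medians and filled points have adjusted p below 0.05. No point is filled on the left. Filled points on the right include 2 members, 4 elongation cycle or electron donor genes, 5 supply genes, 4 peroxisomal genes and 1 regulator.

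Of 15 known regulators of these genes 1 rose and 0 fell with DEHP in wild-type mice, and the median was -0.03. The riser was Pparg (0.51 ± 0.12, adjusted p = 0.0199), the adipogenic nuclear receptor, whose call was lost in 5 of 8 omissions (adjusted p up to 0.0732 without WT-53). Srebf1 differed by -0.20 ± 0.22 (adjusted p = 0.732), and Insig1 and Insig2, which hold SREBP proteins in the endoplasmic reticulum, by 0.41 ± 0.12 and -0.39 ± 0.11 (adjusted p = 0.0648 and 0.0677). In null mice 0 of 15 were called, 3 at an unadjusted p below 0.05, with a median of 0.05. Pparg read 210 to 254 in null mice on DEHP and 191 to 276 in null mice on corn oil, against 124 to 158 in wild-type mice on DEHP and 87.0 to 113 in wild-type mice on corn oil. It was higher in nulls by 0.69 ± 0.12 under DEHP (adjusted p = 0.00215) and by 1.14 ± 0.12 under corn oil (adjusted p = 5.28e-05), without overlap and in every omission. Under DEHP, Insig2 (0.44 ± 0.12, adjusted p = 0.0293) and Rxra (0.31 ± 0.08, adjusted p = 0.0225), the partner of PPARα on DNA, were also higher in nulls, making 3 of 15 higher and Ppara alone lower. Insig2 and Rxra lost these calls in 5 and 2 of 7 omissions (adjusted p up to 0.147 and 0.149 without KO-122).

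Markers of cell types give the setting of these values. The 7 measured hepatocyte markers summed to intensities of 71754 to 77213 in null mice on DEHP, 69050 to 76902 in null mice on corn oil, 71383 to 72380 in wild-type mice on DEHP and 73628 to 75164.5 in wild-type mice on corn oil, a sum set mostly by its brightest probe sets, such as Alb at 14457 to 15859 over all mice. Each of the 7 read 1709 or more in every mouse, where array medians were 44.4 to 47.5. Adipocyte markers (6 of 7 measured, 0 called with DEHP in either genotype) summed to 136.5 to 143.6 in null mice on DEHP, 133.7 to 142.8 in null mice on corn oil, 131.7 to 173.6 in wild-type mice on DEHP and 135.4 to 142.0 in wild-type mice on corn oil. The highest sum was that of WT-57, which also had the highest sum of the 4 measured cholangiocyte markers, 440 beside 199 to 221 in the other wild-type mice on DEHP. Without WT-57 Fads2 and Elovl5 were still called with DEHP. Markers of myelin-forming cells (3 of 5 measured) and of sebaceous and keratinocyte cells (5 of 5) summed to 95.7 to 117.2 and 140.1 to 164.7 over all mice, with 0 called with DEHP. No value on these arrays is 0, so absence cannot be read from them.

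Endothelial markers were higher in null than in wild-type mice under DEHP for 5 of 6 (4 of 6 or fewer in each omission of a mouse, and 3 without KO-122), with sums of 2459 to 2783 against 1915 to 2163, in the comparison in which Scd1 and Fads2 were lower. Stellate markers summed to 1098 to 1491 against 922 to 968 there, with 1 of 6 called higher (Reln), and macrophage markers to 1892 to 2173 against 1343 to 2014, with 1 of 7 called higher (Csf1r). Hnf4a of the hepatocyte markers was higher in nulls there as well (0.33, adjusted p = 0.00995), and Ly6g was the 1 of 6 leukocyte markers called higher. Ly6g read 14.7 to 17.0 in null against 11.4 to 14.4 in wild-type mice on DEHP, below the array medians of 44.4 to 47.5. The Csf1r, Hnf4a and Ly6g calls were lost in 2, 1 and 4 of 7 omissions (adjusted p up to 0.0857 without KO-121, 0.0627 without KO-122 and 0.12 without KO-121), and that of Reln in 0. Under corn oil, where no member was called between genotypes, stellate markers summed to 1143 to 1614 in null against 993 to 998 in wild-type mice. The stellate median difference, null minus wild type, was 0.48 under corn oil and 0.44 under DEHP. That of macrophage markers was 0.25 and 0.35, and that of endothelial markers 0.09 and 0.38. Under corn oil 0 markers of each of these lists were called. With DEHP in wild-type mice, where Fads2 and Elovl5 rose, S100a8 was the 1 of 6 leukocyte markers that rose (1.78 ± 0.24, adjusted p = 0.00061), reading 83.1 to 137 on DEHP against 24.0 to 46.6 on corn oil. The list sums of 229 to 282 on DEHP against 172 to 193 on corn oil differed mostly by this gene. The list median was 0.03, and 4 of 6 differences were positive. S100a9, 1 of these, read 34.7 to 36.4 on DEHP against 29.5 to 35.6 on corn oil. Cd3e and Ly6g went the other way, by -0.09 and -0.17 (adjusted p = 0.666 and 0.284). Cps1, Stab2 and Reln, 1 gene each of the hepatocyte, endothelial and stellate lists, fell (-0.34, -0.33 and -0.50), and the Cps1 call was lost in 5 of 8 omissions (adjusted p up to 0.0617 without WT-58). The part of these markers in the members' results was not tested.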

How the data were processed

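Liver RNA of 15 male mice was hybridized to Affymetrix whole-transcript arrays, 1 array per mouse, after amplification of 300 ng per the labels' protocols. The authors deposited linear intensity values on a common scale. For the normalization method and array batches, the labels and files used here give no statement. Probe sets were named through GEO's platform annotation, updated to RefSeq symbols. Of 35494 probe sets, 21789 had 1 symbol, 1621 several and 12084 none. Of these, 21698 were matched to a gene identifier, and the brightest probe set of each gene left 19938 genes. No 2 arrays held identical values.

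The log2 of the deposited values was fitted in limma 3.58.1 (R 4.3.3) with 1 mean per group, residual degrees of freedom 11 and prior degrees of freedom 4.68. Tests were 2-sided, with Benjamini-Hochberg adjustment over all genes, a threshold of 0.05 and no minimum fold. Intervals are 95% intervals of the moderated test. The fit was tested on simulated data in which each gene had the same normal spread in all groups. That test does not cover genes such as Scd1, whose log2 SD was 1.43 within null and 0.21 within wild-type groups. Labels number the animals differently in each group, so nothing pairs them. The p-values set a difference against the spread between mice within groups, pooled over all groups. With 1 array per mouse, that spread includes any difference between arrays. The number of arrays limits the precision.

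The members and the gene lists (other desaturases and elongases, elongation partners, peroxisomal steps, fatty acid supply, regulators, clock, male-biased, female-biased and cell type markers) were chosen with earlier results of these data known. The rule was to name all members, up to 4 called genes of a list by size, Ppara, and the 2 genes most like each member called with DEHP. Named beyond it were 5 called supply genes and some uncalled genes, such as Fasn, Insig1 and Cd3e, which were not fixed beforehand. The further genes read beside Scd1 are marked as chosen after their values were seen. Promoter sequences are from RefSeq (GRCm38), and motifs were searched on both strands in Python 3.11.15 with pandas 2.3.3. Alternatives were quantile normalization, leaving out genes with a mean log2 under 5, the mean of all probe sets, log2 of the value plus 16, a trended robust prior, a fit of only the groups compared, and leaving out each mouse.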

Additional observations from a re-analysis of the deposited data

Results flagged for a closer look

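In wild-type mice on DEHP, Fads2 read 5928.59 in WT-58, far from the next mouse at 4405.67 relative to the range of its group. Elovl5 was also highest in WT-58. In the same group Scd1 read 6220.42 in WT-59, far below the next mouse at 7704.04. These were 2 of 27 groups of 4 mice looked at over the members, and chance alone marks about 1 in 20.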

How the results depend on the processing

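With DEHP in wild-type mice, Fads2 and Elovl5 were called under every alternative tried, and Scd1 as well when only those groups were fitted. In nulls with DEHP, in the difference of effects and between genotypes under corn oil, no member was called under any alternative. Between genotypes under DEHP, 2 members were called, but 1 (Fads2) with the trended robust prior (Scd1 adjusted p = 0.0693) and 1 (Fads2) with only those groups fitted (Scd1 adjusted p = 0.0767). Leaving out each mouse gave 0 to 2, with 0 without KO-122 and 0 without WT-58. Over all genes, calls with DEHP in nulls were 94, but 1 with only those groups fitted, 161 with quantile normalization, 281, 287 and 293 with the dim genes left out, the added 16 and the robust prior, and 9 to 168 without single mice. The same omissions gave 433 to 614 of 770 in wild-type mice, 61 to 299 of 179 for the difference of effects, 1019 to 1950 of 2133 between genotypes under DEHP and 159 to 230 of 237 under corn oil. The difference of effects gave 418 to 445 with the dim genes left out, the added 16 or the robust prior. Only 1331 genes were called between genotypes under DEHP with those groups alone. The cause was not tested. No paired analysis was possible because the groups share no replicate numbers.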

Other observations

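Elovl3 is known to follow the daily rhythm and the male pattern of liver gene expression, and genes of both were read beside it. Of 13 measured clock genes 1 fell with DEHP in wild-type mice, Nr1d1, the repressor REV-ERBα. Nr1d1 read 1103, 1043, 1304 and 797 in wild-type mice on DEHP, against 1497, 1313, 1556 and 1519 in wild-type mice on corn oil (-0.49 ± 0.12, adjusted p = 0.0354), and the call was lost in 6 of 8 omissions of single mice, with adjusted p up to 0.0935 without WT-54. WT-59, the highest mouse in Elovl3 at 3096, was the lowest in Nr1d1. In null mice 0 of the 13 were called in limma, 1 at an unadjusted p below 0.05.

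Of 9 measured male-biased genes, Cyp4a12b (0.72 ± 0.13, adjusted p = 0.00606) and Cyp4a12a (0.43 ± 0.11, adjusted p = 0.0319), both fatty acid ω-hydroxylases, rose and Hsd3b5, a steroid dehydrogenase, fell (-1.46 ± 0.36, adjusted p = 0.0319) with DEHP in wild-type mice. Only 2 of the 9 differences were positive there, those of the Cyp4a12 genes. The list median was -0.21, beside -0.015 for all genes. In null mice 6 of the 9 were positive, with a median of 0.08 and 0 called. The Cyp4a12b call held in every omission, while those of Cyp4a12a and Hsd3b5 were lost in 8 and 7 of 8, with adjusted p up to 0.0974 without WT-55 and 0.0985 without WT-56. Of 7 measured female-biased genes Cyp3a44, a cytochrome P450, rose with DEHP in null mice (0.89 ± 0.17, adjusted p = 0.0351) and in wild-type mice (0.71 ± 0.16, adjusted p = 0.019). These calls were lost in 5 of 7 and 4 of 8 omissions, with adjusted p up to 0.172 without KO-122 and 0.0652 without WT-54. Of the 7 female-biased differences, 5 were positive in null mice and 7 in wild-type mice, with medians of 0.11 and 0.13. The part of rhythm or sex bias in the Elovl3 levels was not tested.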
